A study of Mus musculus with 8 samples.

Results

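The inward rectifier and ATP-sensitive potassium channel genes of the mouse heart ventricle are described here by 9 genes, namely Kcnj2, Kcnj12, Kcnj3, Kcnj5, Kcnj8, Kcnj11, Abcc8, Abcc9 and Kcnk3. They were taken by gene name from the authors' Cuffdiff tables, where they are 9 of 23100 listed genes and 26 of 35754 listed isoforms. Ventricles came from 4 DKO mice (Sox5fl/fl, Sox6fl/fl, positive for aMHC-Cre) and 4 Ctrl mice (Sox5fl/fl, Sox6fl/fl, negative for aMHC-Cre), all aged 4.5 months. Both groups thus carried loxP-flanked alleles of the SoxD transcription factor genes Sox5 and Sox6. The aMHC promoter drives Cre in cardiomyocytes, so the other cells of the ventricle keep both genes, and because Ctrl mice lacked Cre, effects of Cre and of the deletion cannot be told apart. No operation is named for these animals in their labels, although the title of the series speaks of pressure overload.

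Potassium channels hold the resting potential of heart muscle cells near that of potassium and help to end the action potential. Kir2 channels, encoded by Kcnj2 and Kcnj12, carry the strong inward rectifier current IK1 of ventricular myocytes. Kcnj3 and Kcnj5 encode the subunits of the G protein-gated channel that acetylcholine opens through the muscarinic receptor, a current best known in atria and pacemaker tissue. ATP-sensitive (KATP) channels join pore subunits, from Kcnj8 or Kcnj11, with sulfonylurea receptors, from Abcc8 or Abcc9, and open when cellular ATP falls. Kcnk3 encodes TASK-1, a background channel of the K2P family.

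Levels are FPKM (fragments per kilobase of transcript, scaled to library size), a scale that allows for transcript length. The authors deposited 1 FPKM value per genotype, pooled over its 4 animals, so no value has an error between animals and neighbouring levels cannot be judged against their spread. The reads per library are unknown here. The authors' Cuffdiff test treated 12133 genes as testable, and a gene is called where its q there is 0.05 or less. That test called 893 genes, 7.36% of those tested, with 371 lower in DKO (3.06%) and 522 higher (4.30%). Sox6 was at 1.69 FPKM in DKO and 3.39 FPKM in Ctrl, for which the authors' deposited table gives q = 0.00158. Sox5 was at 0.497 FPKM in DKO and 0.369 FPKM in Ctrl and was not tested, so its label has no check here. Myl2, the ventricular myosin light chain gene, stood at 17014 FPKM in DKO and 20639 FPKM in Ctrl, and Myl7, its atrial counterpart, at 0.140 FPKM in DKO and 0.192 FPKM in Ctrl. In these bulk samples, fewer cells of a type and less RNA per cell cannot be told apart.

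All 9 channel genes were tested, and 2 were called, Kcnj3 and Kcnj2, both lower in DKO, beside a share of 3.06% lower calls among all tested genes. The KATP genes, Kcnj12, Kcnj5 and Kcnk3 were not called. The log2 ratio of DKO over Ctrl was below 0 in 7 of 9 genes, against 51.1% of all tested genes. Its median over the 9 genes was -0.12, against -0.0042 over all tested genes and -0.19 over 12 cardiomyocyte markers, of which none was called and 12 were below 0. An unadjusted p of at most 0.05 was reached by 4 of the 9 genes, against 16.5% of all tested genes.

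**Figure D1:**
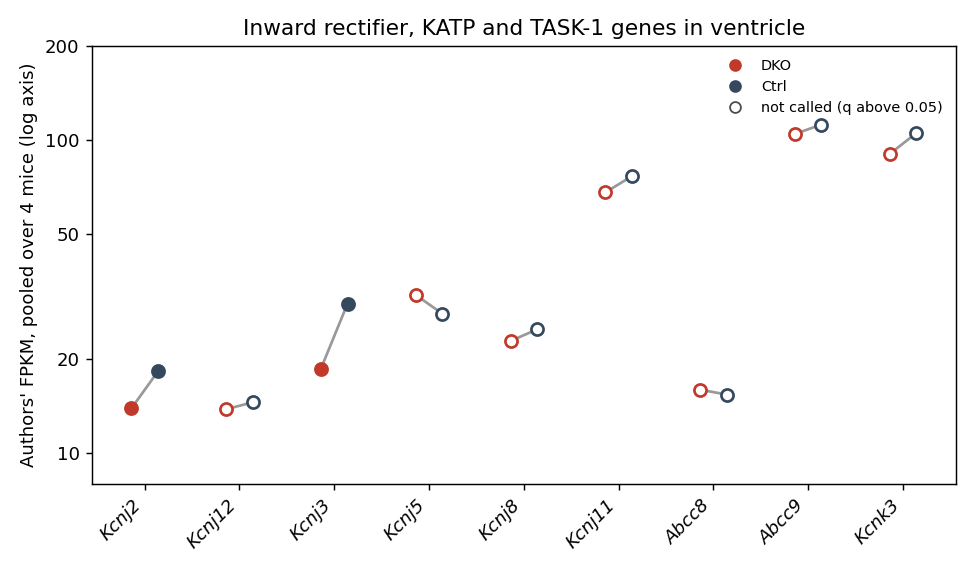
Levels of the 9 channel genes, as the authors' FPKM on a log axis, with DKO left of Ctrl for each gene; each point is 1 value pooled over 4 mice, without an error, and filled points mark called genes. Kcnj2 (13.9 in DKO, 18.3 in Ctrl) and Kcnj3 (18.7 in DKO, 30.1 in Ctrl) are the called genes, and Kcnj5 (32.0 in DKO, 27.9 in Ctrl) and Abcc8 (16.0 in DKO, 15.4 in Ctrl) are those whose DKO value is the higher.

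The levels spanned less than one order of magnitude. In DKO the order of FPKM, from high to low, was Abcc9, Kcnk3, Kcnj11, Kcnj5, Kcnj8, Kcnj3, Abcc8, Kcnj2 and Kcnj12. In Ctrl it was Abcc9, Kcnk3, Kcnj11, Kcnj3, Kcnj5, Kcnj8, Kcnj2, Abcc8 and Kcnj12. Kcnj3 thus stood in place 6 in DKO and in place 4 in Ctrl, and Kcnj2 in place 8 in DKO and 7 in Ctrl. Abcc9 lay above 93.8% of tested genes in DKO and 94.2% in Ctrl, and Kcnj12 above 59.3% in DKO and 60.9% in Ctrl.

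Of the subunits of the acetylcholine-gated channel, Kcnj3 fell and Kcnj5 was not called. Kcnj3, on chromosome 2 at 55289232 to 55447936 in the mm9 build, encodes the subunit GIRK1. Its level was 18.7 FPKM in DKO and 30.1 FPKM in Ctrl, or -0.69 as a log2 ratio, for which the authors' deposited table gives q = 0.00158. The level in DKO was thus lower by 37.9%. Kcnj5, on chromosome 9 at 32122368 to 32151822, encodes GIRK4, with which GIRK1 assembles in heart cells. It stood at 32.0 FPKM in DKO and 27.9 FPKM in Ctrl, or 0.20 as a log2 ratio, for which the authors' deposited table gives an unadjusted p of 0.0346 and q = 0.240. The FPKM ratio of Kcnj3 to Kcnj5 was 0.582 in DKO and 1.08 in Ctrl. Kcnj5 thus had the higher value in DKO, while in Ctrl the values of the pair lay close together. Their summed level was 50.7 FPKM in DKO and 58.0 FPKM in Ctrl. The difference between the ratios was not tested, since the tables hold no value per animal.

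Between the Kir2 genes, Kcnj2 fell and Kcnj12 was not called. Kcnj2, on chromosome 11 at 110927478 to 110938139, encodes Kir2.1, the main pore subunit of IK1 in mouse ventricle. It was at 13.9 FPKM in DKO and 18.3 FPKM in Ctrl, or -0.39 as a log2 ratio, for which the authors' deposited table gives q = 0.00158. The level in DKO was lower by 23.8%. Relative to the median of cardiomyocyte markers its log2 ratio was -0.20. Kcnj12, on the same chromosome at 60836308 to 60884637, encodes Kir2.2. It stood at 13.8 FPKM in DKO and 14.6 FPKM in Ctrl, with log2 -0.07 and, in the authors' deposited table, q = 0.882. The FPKM ratio of Kcnj2 to Kcnj12 was 1.01 in DKO and 1.26 in Ctrl. Kcnj2 and Kcnj3 carried the smallest p-value in the authors' deposited gene table, 5e-05, which 385 called genes share, so their order by p is not defined.

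The sequences just upstream of the called genes, and of Kcnj5, the partner of Kcnj3, are shown because SoxD proteins bind DNA at a short AACAAT-type motif. Each is the 250 bases before the RefSeq gene start, 5′ to 3′ on the gene's own strand, in build GRCm38.p6, whose coordinates differ from those of mm9. Capitals mark matches on either strand to this motif or its core (ACAAT), to a CCAAT box, to the TATA box (TATAAA) or to an E-box (CACGTG). The windows lie at chr2:55435720-55435969 (plus strand) for Kcnj3, at chr9:32344345-32344594 (minus strand) for Kcnj5 and at chr11:111065914-111066163 (plus strand) for Kcnj2.
Kcnj3: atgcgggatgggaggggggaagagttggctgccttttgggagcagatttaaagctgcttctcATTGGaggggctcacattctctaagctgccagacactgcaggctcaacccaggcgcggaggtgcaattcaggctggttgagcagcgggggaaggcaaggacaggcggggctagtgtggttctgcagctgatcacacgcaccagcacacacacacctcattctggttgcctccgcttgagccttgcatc
Kcnj5: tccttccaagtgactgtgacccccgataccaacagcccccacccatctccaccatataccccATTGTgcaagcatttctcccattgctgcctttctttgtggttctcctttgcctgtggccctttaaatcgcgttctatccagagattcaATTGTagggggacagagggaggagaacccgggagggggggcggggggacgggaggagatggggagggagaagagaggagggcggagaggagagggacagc
Kcnj2: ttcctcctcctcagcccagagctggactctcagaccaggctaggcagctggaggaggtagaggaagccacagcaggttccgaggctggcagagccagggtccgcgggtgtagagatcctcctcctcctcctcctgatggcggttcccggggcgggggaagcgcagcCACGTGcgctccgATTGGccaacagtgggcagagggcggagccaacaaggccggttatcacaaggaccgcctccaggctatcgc
RefSeq's table holds a promoter for 6 of the 9 genes, those 3 with Kcnj8, Kcnj12 and Abcc9. The whole SoxD-type motif was in none of the 6 windows, and in 9.42% of 32851 promoters of the same length. The TATA box was in none either, and in 12.4% of all promoters. The core, which every whole motif also contains, occurred in 27.7% of all promoters, and here in the windows of Kcnj5, with 2 matches, and Kcnj8, with 1. Kcnj3 and Kcnj2 each held 1 CCAAT box on the opposite strand, beginning 188 bases before the start in Kcnj3 and 71 bases before it in Kcnj2, a motif found in 33.8% of all promoters. The Kcnj2 window also held the E-box, found in 6.02%. These matches describe letters, not binding, and a missing match speaks only of these windows.

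The KATP channel genes lie in pairs of 1 pore and 1 receptor gene, and none of the 4 was called. On chromosome 6, Kcnj8 (142513459 to 142519876) and Abcc9 (142536382 to 142651001) are 16.5 kb apart. On chromosome 7, Kcnj11 (53352493 to 53356134) and Abcc8 (53359893 to 53435403) are 3.76 kb apart. Kcnj11 encodes Kir6.2, the pore of the ventricular myocyte channel, and was at 68.1 FPKM in DKO and 76.8 FPKM in Ctrl, with log2 -0.17 and, in the authors' deposited table, q = 0.333. Kcnj8 encodes Kir6.1, best known from vascular smooth muscle and pericytes, and was at 22.8 FPKM in DKO and 24.9 FPKM in Ctrl, with log2 -0.12 and, in the authors' deposited table, q = 0.680. The ratio of Kcnj11 to Kcnj8 was 2.98 in DKO and 3.09 in Ctrl, so the Kir6.2 gene had the higher level in both groups.

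The receptor gene with the higher level was Abcc9, for SUR2, the receptor of ventricular and vascular KATP channels. It stood at 104.7 FPKM in DKO and 112.2 FPKM in Ctrl, with log2 -0.10 and, in the authors' deposited table, q = 0.777. Abcc8 encodes SUR1, the receptor of pancreatic beta cells and, in mice, of atrial myocytes. It was at 16.0 FPKM in DKO and 15.4 FPKM in Ctrl, with log2 0.05 and, in the authors' deposited table, q = 0.916. The ratio of Abcc9 to Abcc8 was 6.56 in DKO and 7.28 in Ctrl. Summed, the pore genes stood at 91.0 FPKM in DKO and 101.6 FPKM in Ctrl, and the receptor genes at 120.7 FPKM in DKO and 127.6 FPKM in Ctrl.

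Kcnk3, on chromosome 5 at 30876360 to 30927738, was the second most abundant of the 9 genes. It was at 90.3 FPKM in DKO and 105.4 FPKM in Ctrl, which is a log2 ratio of -0.22. Its unadjusted p was 0.0181 and its q 0.155 in the authors' deposited table, so it was not called. Of 13 other K2P genes, 2 were tested, neither called. Kcnk6 was at 2.19 FPKM in DKO and 1.98 FPKM in Ctrl, and Kcnk2, for the stretch-sensitive channel TREK-1, at 1.31 FPKM in DKO and 1.26 FPKM in Ctrl. The third by mean level, Kcnk5, stood at 0.290 FPKM in DKO and 0.279 FPKM in Ctrl and was not tested. Kcnk3 was thus the one listed gene of its family above 3 FPKM in these ventricles.

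The deposited isoforms give estimated levels of the transcripts within each gene. For these genes, Cufflinks classed each isoform either as matching an annotated transcript or as an unannotated splice form that shares at least 1 junction with one. Of the 26 isoforms of the 9 genes, 22 were tested and 1 was called, the single transcript of Kcnj2 (5448 bases), where the authors' deposited table gives q = 0.00312. The share of called isoforms among all tested ones was 3.02%. Likewise 1 of 17 tested start site groups of the 9 genes was called, against 4.94% of all tested groups, and 1 of 10 tested coding sequences, against 4.64%, in each case that of Kcnj2. With 1 listed transcript, Kcnj2 had the same FPKM values at these levels as in its gene row. Reads of overlapping isoforms are divided by a model, so the value of 1 isoform is less sure than its gene's total.

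Kcnj3 had 2 listed isoforms, of nearly equal length, that began at different start sites. The annotated one (1679 bases) was at 10.8 FPKM in DKO and 24.0 FPKM in Ctrl, which is a log2 ratio of -1.15, but Cuffdiff marked it as having too little data and gave it no test. The unannotated one (1701 bases) was at 7.85 FPKM in DKO and 6.07 FPKM in Ctrl, with log2 0.37 and, in the authors' deposited table, q = 0.955. The annotated form made up 57.9% of the Kcnj3 level in DKO and 79.8% in Ctrl. By these model-based values, the lower Kcnj3 total in DKO lay in the annotated form, a split that was not tested. The call itself rests on the gene total alone.

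Abcc8 also had isoforms whose ratios pointed in opposite directions, with a total that hardly differed. The annotated one (4952 bases) was at 8.49 FPKM in DKO and 12.9 FPKM in Ctrl, or -0.60 as a log2 ratio, for which the authors' deposited table gives an unadjusted p of 0.0263 and q = 0.343. The unannotated one (4934 bases) was at 7.48 FPKM in DKO and 2.54 FPKM in Ctrl, with log2 1.56 and, in the authors' deposited table, q = 0.697. Neither was called, and they share 1 start site group, which was at the gene's total. The annotated form was 53.2% of Abcc8 in DKO and 83.5% in Ctrl.

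**Figure D2:**
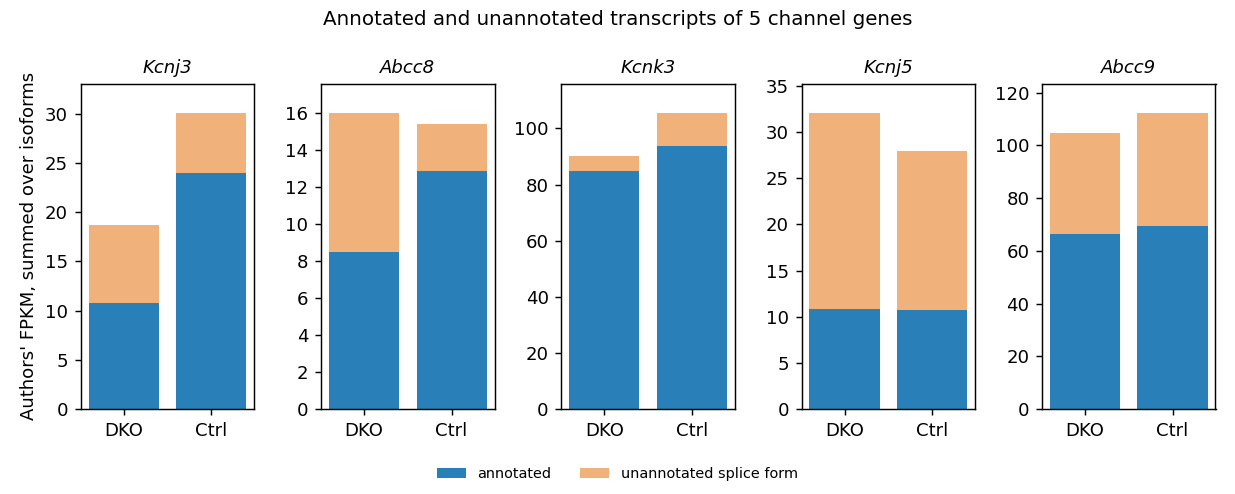
Levels of annotated (blue) and unannotated (orange) transcripts of 5 channel genes, as the authors' FPKM summed over isoforms and stacked from 0, with DKO left of Ctrl and a scale of its own for each gene; bars have no error. The annotated part of Kcnj3 is 10.8 in DKO and 24.0 in Ctrl, and that of Abcc8 is 8.49 in DKO and 12.9 in Ctrl, while the annotated part of Kcnj5 is 10.8 in DKO and 10.7 in Ctrl.

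In the other genes no isoform was called. The annotated Kcnk3 transcript (3810 bases) held 93.8% of the gene's level in DKO and 88.8% in Ctrl, at 84.7 FPKM in DKO and 93.6 FPKM in Ctrl. An unannotated Kcnk3 form (3522 bases) was at 4.27 FPKM in DKO and 10.2 FPKM in Ctrl, where the authors' deposited table gives q = 0.787. Kcnj5 was led by an unannotated form (4193 bases) at 18.4 FPKM in DKO and 14.8 FPKM in Ctrl, and its annotated form was at 10.8 FPKM in DKO and 10.7 FPKM in Ctrl. By these values the higher DKO level of Kcnj5 lay mostly in the unannotated form, though neither the gene nor this form was called. Kcnj12 was carried almost wholly by an unannotated form (2053 bases), which held 97.3% of its level in DKO and 97.6% in Ctrl.

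Abcc9 had 10 listed isoforms between 2954 and 7538 bases, 1 of them listed at 0 in both groups. The longest, an annotated one, held 58.1% of the level in DKO and 59.6% in Ctrl, at 60.9 FPKM in DKO and 66.9 FPKM in Ctrl. An unannotated form of 5010 bases followed, at 23.6 FPKM in DKO and 24.6 FPKM in Ctrl. Another annotated one (7433 bases) was at 5.31 FPKM in DKO and 1.61 FPKM in Ctrl, where the authors' deposited table gives q = 0.787. The tables do not name the SUR2A and SUR2B splice forms, so these were not told apart. Kcnj11 had 2 annotated isoforms, the longer (3115 bases) at 52.0 FPKM in DKO and 58.8 FPKM in Ctrl and the shorter (2667 bases) at 16.2 FPKM in DKO and 18.0 FPKM in Ctrl. Kcnj8 had 1.

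Reads of an antisense partner cannot be separated from those of a channel gene where counting ignores strand, and whether the authors counted by strand is not stated in the sources used here. In the GENCODE M21 annotation, Kcnj3, Abcc8, Abcc9 and Kcnk3 overlap a gene on the opposite strand, and the other 5 channel genes do not. Abcc8 also overlaps Gm45487 on its own strand. The opposite-strand genes of Kcnk3 and Abcc9 have rows of their own in the gene table. For Gm26794, opposite Kcnj3, and Gm45486, opposite Abcc8, no level is given here. Gm9899, opposite Kcnk3, was at 6.33 FPKM in DKO and 7.23 FPKM in Ctrl, and 5330439B14Rik, opposite Abcc9, at 7.42 FPKM in DKO and 7.20 FPKM in Ctrl. Neither was called.

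The genes of the receptors and G proteins that act on the Kcnj3 and Kcnj5 channel, listed with regulators of that pathway, did not move as one. Of 15 listed genes, all tested, 1 was lower, 2 were higher and 12 were not called, with a median log2 ratio of 0.03. Among all tested genes, 3.06% were called lower in DKO and 4.30% higher. Chrm2, the muscarinic receptor gene of heart muscle, fell to 33.7 FPKM in DKO, against 49.1 FPKM in Ctrl, which is a log2 ratio of -0.54. Gnao1, a Gi/o family alpha subunit gene, rose to 15.1 FPKM in DKO, against 10.9 FPKM in Ctrl, which is a log2 ratio of 0.47. Grk5, a kinase gene whose product desensitizes G protein-coupled receptors, rose to 24.4 FPKM in DKO, against 12.2 FPKM in Ctrl, which is a log2 ratio of 1.00. No single isoform of the 3 listed for Chrm2 was called. Chrm2, Gnao1 and Grk5 each had q = 0.00158 in the authors' deposited table.

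The most abundant genes of the pathway were not called. Gnai2, the main inhibitory alpha subunit gene of the heart, was at 148.1 FPKM in DKO and 138.4 FPKM in Ctrl. Gnb2 was at 109.9 FPKM in DKO and 115.8 FPKM in Ctrl, and Gng5 at 55.2 FPKM in DKO and 62.6 FPKM in Ctrl. Both encode subunits of the beta-gamma dimer, the part of the G protein that opens GIRK channels. Chrm2, for the receptor, and Kcnj3, for one pore subunit, were thus both lower in DKO, while Kcnj5, for the other pore subunit, was at 32.0 FPKM in DKO and 27.9 FPKM in Ctrl and, like these G protein genes, was not called.

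**Figure D3:**
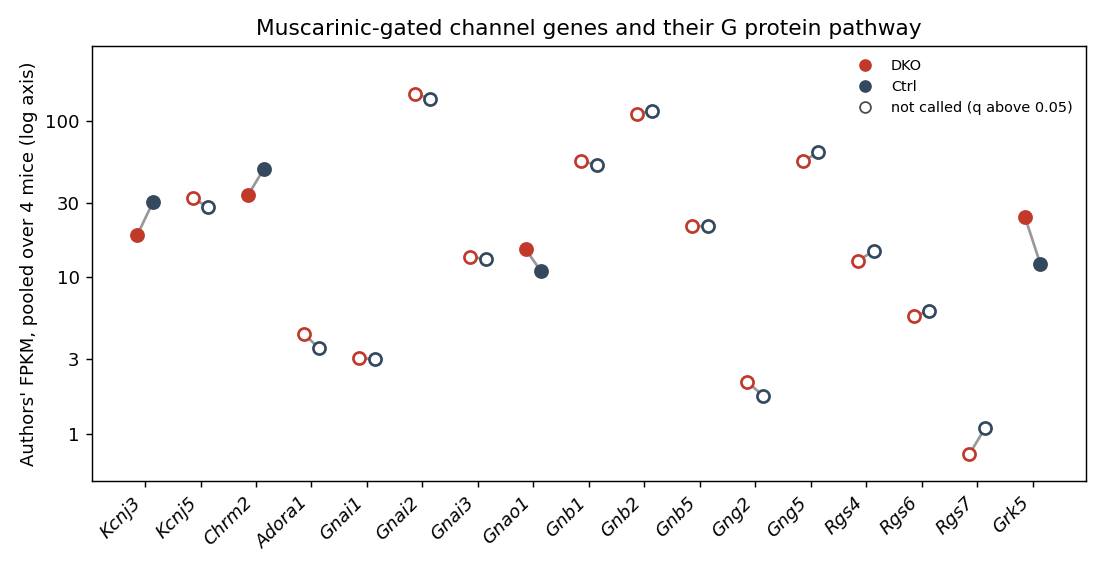
Levels of Kcnj3, Kcnj5 and 15 genes of the receptor and G protein pathway that acts on their channel, regulators of the pathway among them. Values are the authors' FPKM on a log axis, with DKO left of Ctrl for each gene, 1 pooled value per genotype and no error. Filled points mark called genes. Kcnj3 and Chrm2 (33.7 in DKO, 49.1 in Ctrl) are lower in DKO, and Gnao1 (15.1 in DKO, 10.9 in Ctrl) and Grk5 (24.4 in DKO, 12.2 in Ctrl) are higher.

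Atrial and pacemaker cells are the best known sites of Kcnj3, so the markers of both were examined beside it. Of 9 atrial markers, 6 were tested. Over the whole gene table, 4.30% of tested genes were called higher in DKO and 3.06% lower. Nppa, for atrial natriuretic peptide (1303 FPKM in DKO, 464 FPKM in Ctrl), Dkk3 (1.59 FPKM in DKO, 0.804 FPKM in Ctrl) and Pam (366 FPKM in DKO, 279 FPKM in Ctrl) rose, the largest q in the authors' deposited table being 0.00517, and none was lower. With an FPKM of at least 1 required in both groups the Dkk3 call was lost, and its log2 ratio of 0.98 became 0.52 on the log2(FPKM + 1) scale. No single isoform of Pam was called, the lowest q in the authors' deposited table being 0.124, for the annotated form of 4103 bases. Stard10 was at 18.4 FPKM in DKO and 19.2 FPKM in Ctrl, Myl4, for the atrial essential light chain of myosin, at 3.58 FPKM in DKO and 3.69 FPKM in Ctrl, and the connexin gene Gja5 at 3.54 FPKM in DKO and 3.89 FPKM in Ctrl, none of them called. Nppa is also a gene of stressed ventricular muscle. The 3 untested markers were near 0, with Myl7 as above, Sln at 0.0671 FPKM in DKO and 0.367 FPKM in Ctrl, and Bmp10 at 0.0364 FPKM in DKO and 0.0204 FPKM in Ctrl. The summed level of the list was 1697 FPKM in DKO and 771 FPKM in Ctrl, most of it Nppa and Pam.

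Of 7 conduction system markers, 5 were tested, 1 was lower and none was higher, beside 3.06% lower and 4.30% higher among all tested genes. Their median log2 ratio was -0.17, with 5 of 5 ratios below 0, against 51.1% of all tested genes. Hcn4, a pacemaker channel gene, fell to 2.27 FPKM in DKO, against 3.38 FPKM in Ctrl, with q = 0.00158 in the authors' deposited table. Tbx3 was at 4.61 FPKM in DKO and 4.75 FPKM in Ctrl and Gjc1 at 13.4 FPKM in DKO and 14.2 FPKM in Ctrl, not called, and Isl1 was listed at 0 in both groups. The list's summed level was 22.1 FPKM in DKO and 24.4 FPKM in Ctrl. Hcn4 moved in the direction of Kcnj3, and the part of conduction cells in its result was not tested.

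Cardiomyocyte markers summed to 65537 FPKM in DKO and 75484 FPKM in Ctrl. After Myl2, the most abundant were the actin gene Actc1 (12506 FPKM in DKO, 13546 FPKM in Ctrl) and the myosin light chain gene Myl3 (8826 FPKM in DKO, 10208 FPKM in Ctrl). With the median of these markers set to 0, a shift of 0.19 on the log2 scale for every gene, the log2 ratio of Kcnj3 was -0.50, against -0.69 unscaled. That of Kcnj2 moved to -0.20, against -0.39 unscaled, and that of Chrm2 to -0.36, against -0.54 unscaled. On that scale Kcnj8, Kcnj11, Kcnj12 and Abcc9 had ratios above 0, between 0.02 and 0.11, and Kcnk3 stood at -0.04. The direction of the uncalled Kcnj8, Kcnj11, Kcnj12 and Abcc9 thus depended on the scale. Kcnk3 stayed below 0 on both scales, and Kcnj5 and Abcc8 stayed above 0.

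Kcnj8 and Abcc9 also mark pericytes and vascular smooth muscle. Of 13 markers of those cells, all tested, Acta2, the smooth muscle actin gene, rose (378 FPKM in DKO, 302 FPKM in Ctrl, q = 0.0241 in the authors' deposited table), and none was lower. This call was lost at a q of at most 0.01 and with a fold of at least 1.3. The share called in either direction among all tested genes was 7.36%. The log2 ratio was above 0 in 9 of the 13 and below 0 in 4, with a median of 0.07. The lowest was that of Vtn, at 14.7 FPKM in DKO and 17.1 FPKM in Ctrl. Rgs5, a pericyte marker, was at 186 FPKM in DKO and 181 FPKM in Ctrl, and the intermediate filament gene Des, which cardiomyocytes also express, at 1675 FPKM in DKO and 1389 FPKM in Ctrl, neither called. The list summed to 2393 FPKM in DKO and 2025 FPKM in Ctrl, most of it Des. Endothelial markers held no call among 12, with a median of -0.07 and a sum of 485 FPKM in DKO and 514 FPKM in Ctrl. By mean level Egfl7 (84.9 FPKM in DKO, 90.6 FPKM in Ctrl), Cdh5 (70.1 FPKM in DKO, 73.5 FPKM in Ctrl) and Kdr (61.4 FPKM in DKO, 70.4 FPKM in Ctrl) stood highest, followed by Pecam1 (61.6 FPKM in DKO, 66.2 FPKM in Ctrl).

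The partners that anchor or modulate Kir2 and KATP channels held no call among 12 tested genes, with a median log2 ratio of -0.01. By level they were led by Kcnip2, better known as a subunit of Kv4 channels, at 174 FPKM in DKO and 187 FPKM in Ctrl. Cav3, the caveolin of muscle, was at 72.6 FPKM in DKO and 76.4 FPKM in Ctrl, and Ank2, for the membrane anchor ankyrin-B, at 37.3 FPKM in DKO and 38.9 FPKM in Ctrl.

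Of 9 other Kcnj genes, only Kcnj14 reached the test, and it rose. Kcnj14, on chromosome 7 at 53071837 to 53080117, encodes Kir2.4. It was at 1.27 FPKM in DKO and 0.386 FPKM in Ctrl, 3.28-fold, with log2 1.72 and, in the authors' deposited table, q = 0.00158, or 0.71 on the log2(FPKM + 1) scale. Its level in DKO remained well below the 13.9 FPKM of Kcnj2. Kcnj15 (0.414 FPKM in DKO, 0.511 FPKM in Ctrl) and Kcnj4 (0.279 FPKM in DKO, 0.390 FPKM in Ctrl), for Kir2.3, came next by mean level and were not tested.

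**Figure D4:**
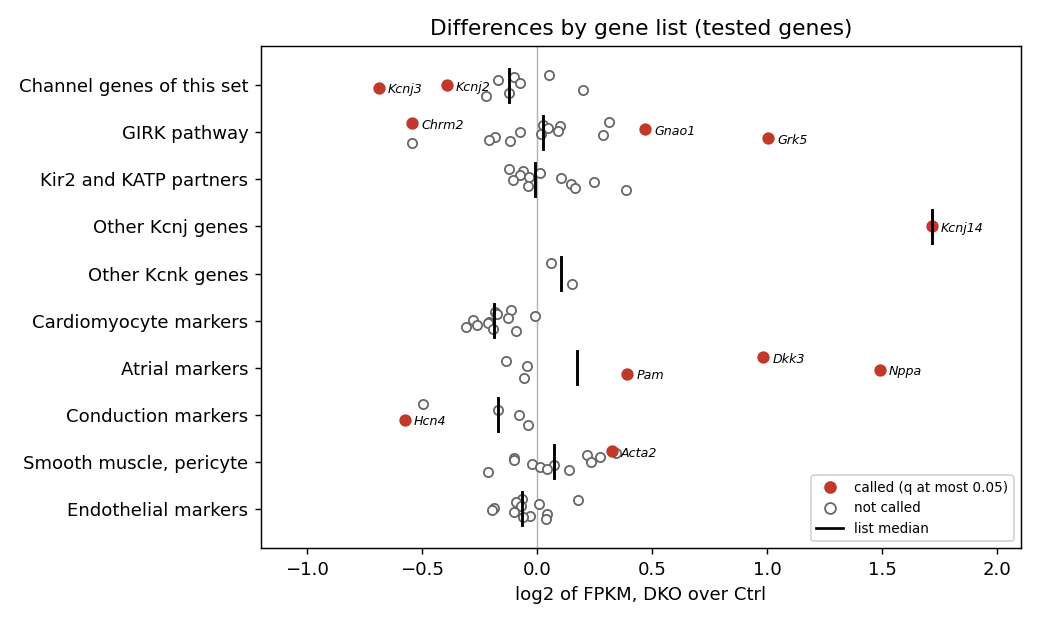
Log2 ratio of the authors' FPKM, DKO over Ctrl, of every tested gene in the channel set and in 9 other lists; filled points are called genes, open points are not, and black bars are list medians, with no error per gene. Kcnj3 (-0.69) and Kcnj2 (-0.39) stand left of the cardiomyocyte marker median of -0.19, and Kcnj14 (1.72) is the farthest to the right.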

How the data were processed

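RNA of 4 DKO and 4 Ctrl ventricles was extracted with Trizol and made into single-end Illumina libraries, per the labels' protocols. The submitters' processing notes name TopHat2 2.0.9, Cufflinks 2.1.1, Cuffdiff 2.1.1 and the build mm9. For the annotation, settings and strand use, nothing is stated in the sources used here. The authors deposited FPKM values per genotype, pooled over animals, and p-values and q-values from Cuffdiff, per the file headers. The deposited log2 fold change sets Ctrl over DKO, so log2 ratios were recomputed as DKO over Ctrl. The deposited q-values equalled Benjamini-Hochberg adjustment over 12133 tested genes to within 5.18e-07. Starts were shifted by 1 to count from 1.

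Groups came from the sample titles. Members and lists were chosen with earlier results of these data known. All members were named, with the called genes and the 3 most abundant genes of each other list, and Sox5 and Sox6. Some listed genes are not reported here and were left out of their lists. No test across animals was possible, and no gene was named for a like pattern, since there are 2 points per gene. Alternatives changed the q, fold and FPKM thresholds, pseudocounts, scaling and feature level. Promoters came from RefSeq (GRCm38.p6). Python 3.11.15, pandas 2.3.3, numpy 2.4.6, SciPy 1.17.1 and matplotlib 3.10.9 were used, and the adjustment was tested on simulated data.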

Additional observations from a re-analysis of the deposited data

How the results depend on the processing

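No paired analysis was possible because the tables hold 1 pooled value per genotype, and for the same reason no animal could be left out. The 2 calls among the 9 channel genes remained Kcnj2 and Kcnj3 at a q of at most 0.01, with a fold of at least 1.3, where both groups had an FPKM of 1 or more, and with adjustment over the 11740 tested genes at that level (a q of 0.00166 each). Kcnj2 lay just past the fold limit, at 1.31 as Ctrl over DKO, and Kcnj3 was at 1.61. At the level of isoforms, start sites and coding sequences, 1 channel gene was called, Kcnj2, while the annotated Kcnj3 form had too little data for Cuffdiff's test and the unannotated one was not called. Kcnj2 has 1 listed transcript, so its values at these levels repeat those of the gene and add no separate evidence. Called genes over the whole table numbered 524 at a q of at most 0.01. In the other lists, the FPKM filter left 0 calls among other Kcnj genes, and ended the Dkk3 call among atrial markers (2 calls), and the smooth muscle and pericyte list, whose call was Acta2, had 0 calls at a q of at most 0.01 and 0 with a fold of at least 1.3. With the median of cardiomyocyte markers at 0, log2 ratios turned to 0.065 for Kcnj8, 0.015 for Kcnj11, 0.11 for Kcnj12 and 0.088 for Abcc9, and moved to -0.20 for Kcnj2, 0.39 for Kcnj5, 0.24 for Abcc8 and -0.035 for Kcnk3. With the most abundant isoform in place of the gene, Abcc8 turned to -0.60, and Kcnj3 moved to -1.15, Kcnj5 to 0.31 and Kcnk3 to -0.14. Both pseudocounts, the median of tested genes at 0 and the sum of isoforms moved no channel gene's ratio by over 1.5 times. These settings could hardly do so, since the median was -0.0042 and isoforms sum to the gene's total. The lowest channel gene value was also 13.8 FPKM (Kcnj12 in DKO), so the FPKM limit of 1 could remove no channel gene. Depth is unknown, so no interval or detection limit was computed.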

Other observations

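Kcnj3 is the longest locus of the set. Its mm9 locus spans 159 kb and that of Chrm2 192 kb, whereas that of Kcnj2 spans 10.7 kb. In the pathway list that holds Chrm2, the genes called higher in DKO also have long loci, Gnao1 of 159 kb and Grk5 of 203 kb. Among 1753 tested loci over 100 kb, 89 were called lower in DKO (5.08%) and 69 higher (3.94%). Among 10380 tested loci up to 100 kb, 282 were called lower (2.72%) and 453 higher (4.36%). The length limit was chosen after earlier results on long loci were known, no test was made of the difference, and the part of locus length in the Kcnj3 result was not tested. Abcc9, whose locus spans 115 kb, was not called.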
